A study of Mus musculus with 21 samples.

Results

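The genes described here are 9 linked C-type lectin genes of mouse chromosome 8 that lie around Clec4g: Clec4g itself, the IgE receptor gene Fcer2a, and the Cd209 genes Cd209a, Cd209b, Cd209c, Cd209d, Cd209e, Cd209f and Cd209g. They were found by their symbols in the platform annotation, each on 1 row, 9 of the 25428 measured genes. They were chosen on their knockout minus control difference and their place on the chromosome. That difference is therefore given as a description, with no p-value for any of the 9 and nothing read from counts of calls.

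Whole livers of 21 mice on a standard diet were profiled on Affymetrix arrays, 1 array per animal. The 10 Gata4-LSEC-KO livers (called knockout livers here) came from a cross of the driver line C57BL/6N-Tg(Clec4g-icre)1.1Sgoe, in which a Cre recombinase is under Clec4g regulatory sequence, with floxed Gata4 mice (Gata4tm1.1Sad). The 11 control livers came from siblings labelled wt. The sources used here give neither their driver status nor the age and sex of any animal. The presence of the transgene and the deletion of Gata4 therefore cannot be told apart in these groups. The deleted gene itself, Gata4, had 6.53 ± 0.23 in knockout livers (SD, n = 10) and 6.73 ± 0.29 in control livers (SD, n = 11) on the log2 scale, which did not pass (difference -0.19 ± 0.10, SE; limma adjusted p = 0.26), so in whole liver it does not check the labels. The sample descriptions are numbered in 2 runs of consecutive values, with 4 knockout and 5 control livers in run 1 and 6 knockout and 6 control livers in run 2; the labels do not call them batches. Values are log2 RMA signals, which the authors made; the arrays share 1 distribution with a median of 3.75, called the array median below. Signals of different genes come from different probes, so levels were compared between livers and not between genes. Differences are knockout minus control with run as a term.

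C-type lectins are cell surface receptors, many of which bind sugars with the help of calcium. Clec4g, also called LSECtin, is a lectin of the sinusoidal endothelium of liver and lymph node. Fcer2a encodes CD23, the low-affinity IgE receptor of B cells. The Cd209 genes are the mouse relatives of human DC-SIGN, a lectin that captures pathogens on dendritic cells; Cd209a is expressed by dendritic cells and Cd209b, also called SIGNR1, by marginal zone macrophages of the spleen. The mouse family arose by repeated duplication, so its members resemble each other in sequence.

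The windows below hold the 250 bases before the start of 4 of the genes, taken from RefSeq on build GRCm38.p6; all 9 genes had an entry, and for Fcer2a, with 3 starts, the outermost was used. They are shown because Clec4g, Fcer2a and Cd209a had the largest differences of the 9 genes, and Cd209e is the next lectin gene along the chromosome. The window of Clec4g is at chr8:3720652-3720901 (minus strand), that of Fcer2a at chr8:3694175-3694424 (minus strand), that of Cd209a at chr8:3748985-3749234 (minus strand) and that of Cd209e at chr8:3854287-3854536 (minus strand). Capitals mark matches to the GATA factor motif, a run of 6 letters searched on both strands as AGATAA, as AGATAG, as TGATAA or as TGATAG.
Clec4g: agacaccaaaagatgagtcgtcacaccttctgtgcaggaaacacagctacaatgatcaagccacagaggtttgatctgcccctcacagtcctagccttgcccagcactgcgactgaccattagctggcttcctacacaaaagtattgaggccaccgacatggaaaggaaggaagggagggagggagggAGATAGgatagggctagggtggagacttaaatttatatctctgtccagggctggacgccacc
Fcer2a: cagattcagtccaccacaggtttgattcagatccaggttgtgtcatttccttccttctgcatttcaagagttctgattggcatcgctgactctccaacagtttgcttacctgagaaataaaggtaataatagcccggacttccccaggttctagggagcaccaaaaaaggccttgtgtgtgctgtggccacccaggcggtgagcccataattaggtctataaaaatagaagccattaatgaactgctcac
Cd209a: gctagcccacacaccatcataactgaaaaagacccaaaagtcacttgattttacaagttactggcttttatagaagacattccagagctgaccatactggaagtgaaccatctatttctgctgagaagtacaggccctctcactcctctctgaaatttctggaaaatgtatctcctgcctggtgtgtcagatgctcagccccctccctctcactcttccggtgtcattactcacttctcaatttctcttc
Cd209e: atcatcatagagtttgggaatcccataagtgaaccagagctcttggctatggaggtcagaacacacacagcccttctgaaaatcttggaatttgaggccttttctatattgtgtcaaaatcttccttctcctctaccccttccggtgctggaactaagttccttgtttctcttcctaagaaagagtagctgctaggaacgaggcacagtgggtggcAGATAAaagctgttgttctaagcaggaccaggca
A GATA match was in 4 of the 9 windows, those of Clec4g (starting 62 bases before the start), Cd209b, Cd209d and Cd209e, and in 26.5% of all 32851 RefSeq windows of this length. The Fcer2a and Cd209a windows held none of these letters. The ETS factor core TTCCGG, searched on both strands after the sequences had been seen, was in 5 of 9 windows, those of Cd209a, Cd209b, Cd209e, Cd209f and Cd209g, and in 3952 of the 32851 windows. Such matches describe letters and do not show binding.

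Cd209f and Cd209g were the most alike pair in this window, with 211 of 250 bases identical in a global alignment (84.4%). The other 35 pairs of the 9 genes had 54.0% to 65.6%. The pair is shown for this likeness. The window lies before the start, so it does not show whether the array signals of the 2 genes are independent. The window of Cd209f is at chr8:4105765-4106014 (minus strand) and that of Cd209g at chr8:4134486-4134735 (plus strand). Capitals mark the longest run that both share, of 154 bases.
Cd209f: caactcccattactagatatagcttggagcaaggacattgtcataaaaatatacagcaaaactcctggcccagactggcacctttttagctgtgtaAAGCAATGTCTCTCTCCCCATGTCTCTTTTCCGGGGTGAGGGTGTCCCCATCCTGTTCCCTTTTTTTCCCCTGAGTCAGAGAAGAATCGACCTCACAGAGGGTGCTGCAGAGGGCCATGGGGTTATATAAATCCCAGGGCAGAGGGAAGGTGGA
Cd209g: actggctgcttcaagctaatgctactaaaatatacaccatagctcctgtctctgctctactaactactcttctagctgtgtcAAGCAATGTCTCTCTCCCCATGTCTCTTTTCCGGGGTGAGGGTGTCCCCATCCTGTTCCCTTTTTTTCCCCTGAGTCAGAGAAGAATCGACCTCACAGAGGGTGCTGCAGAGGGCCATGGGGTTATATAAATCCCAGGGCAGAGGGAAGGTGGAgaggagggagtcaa
Whether probes of the 2 genes match both transcripts was not tested, since probe sequences were not used here.

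Cd209a and Fcer2a were higher and Clec4g was lower in knockout livers, while the other 6 Cd209 genes, all dim, differed by -0.20 to 0.02 on the log2 scale. At an adjusted p under 0.05 in the fit over all genes, 2 of the 9 were higher, where 3.28% of all genes were, and 1 was lower, where 4.05% were. Nothing is read from these counts, since the genes were chosen with this contrast in view. Cd209a and Fcer2a had every knockout liver above every control liver, which 0.0905% of all genes had. None of the 9 had every knockout liver below every control liver, which 0.0393% of all genes had. In whole liver, a change in the number of cells that express a gene and a change in RNA per cell cannot be told apart. The sources used here do not say which genomic sequence around Clec4g the driver transgene holds, so transcripts of transgene copies and of the animal's own genes cannot be told apart either, for these genes and for the others beside Clec4g.

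**Figure D1:**
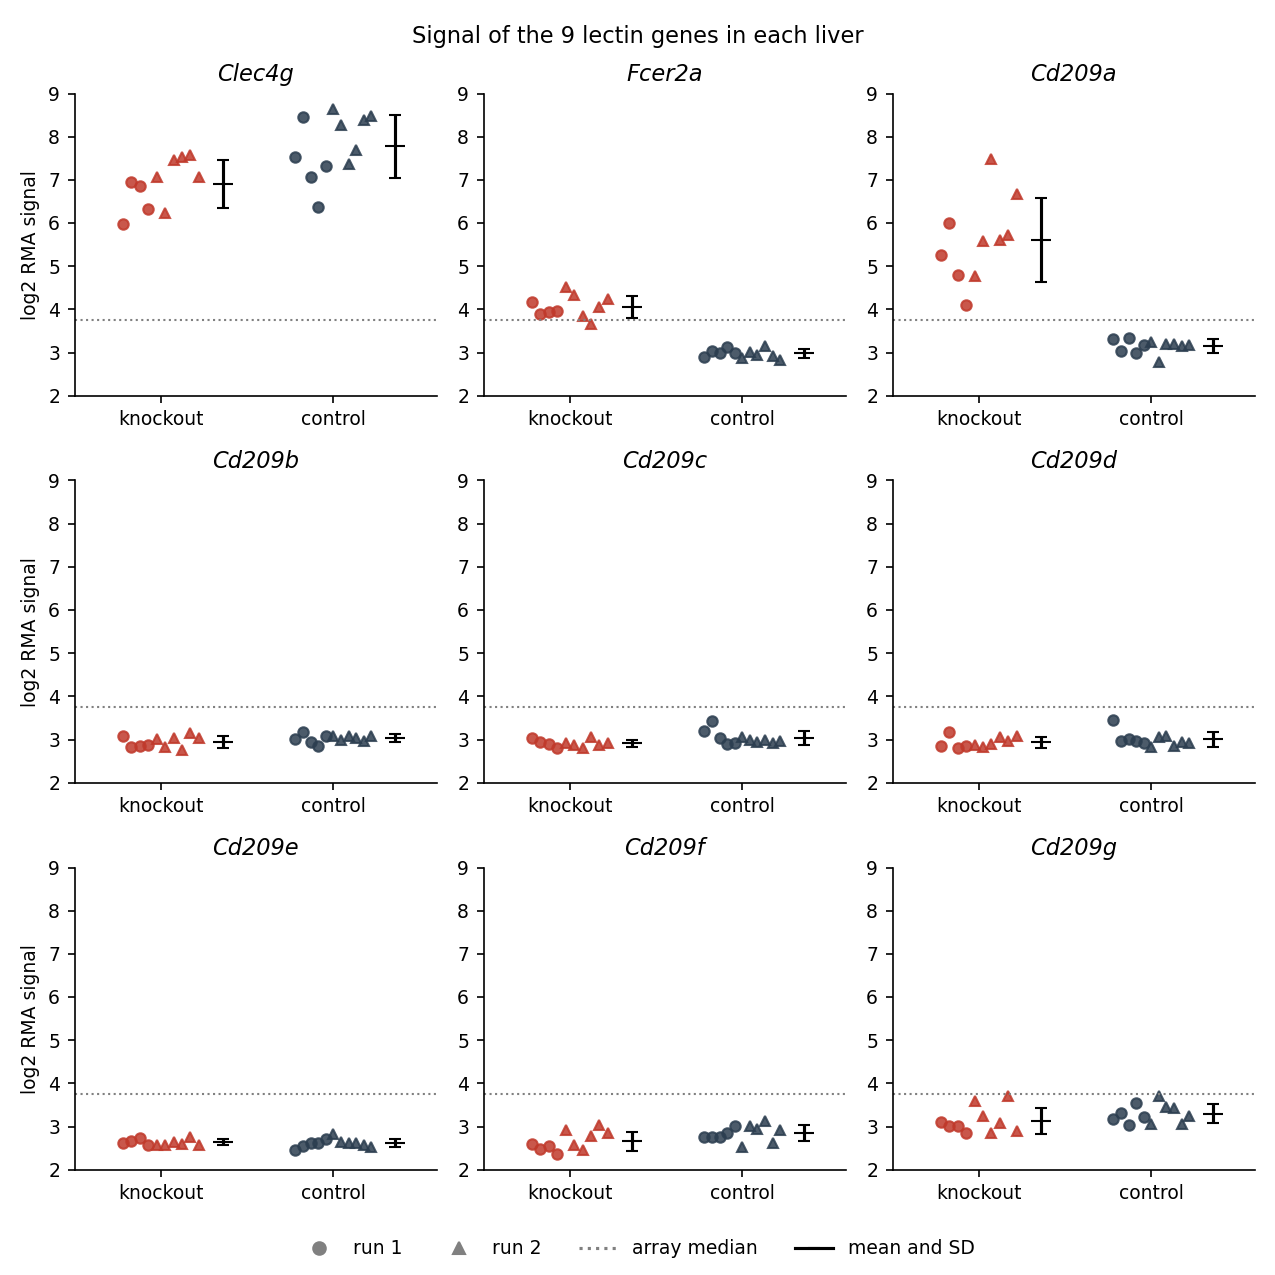
Log2 RMA signal of each of the 9 genes in every liver, knockout left and control right, with circles for run 1, triangles for run 2, the mean and SD of each group as a bar and the array median as a dotted line. Cd209a and Fcer2a separate the genotypes completely, Clec4g overlaps, and the 6 other genes lie under the array median in all 21 livers.

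Clec4g, the sinusoidal lectin, had log2 signals from 5.98 to 7.57 with a median of 6.9995 in knockout livers, and from 6.36 to 8.63 with a median of 7.68 in control livers. The groups overlapped: 6 of 11 control livers lay above the highest knockout liver, and 3 of 10 knockout livers lay below the lowest control liver. The mean was 6.90 ± 0.56 (SD, n = 10) in knockout livers and 7.78 ± 0.73 (SD, n = 11) in control livers. The difference was -0.92 ± 0.23 (SE). It was -0.82 in run 1 and -0.99 in run 2.

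The level of Clec4g was also set against run. Control livers of run 2 averaged 8.14 ± 0.50 (SD, n = 6) and those of run 1 averaged 7.35 ± 0.76 (SD, n = 5). Run 2 minus run 1 was 0.79 ± 0.34 (SE) in control livers, which did not pass the test (limma adjusted p = 0.27). Among the control livers 3.57% of all genes passed this test of run, and none of the 9 lectin genes did; the lowest adjusted p among them was that of Clec4g.

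Fcer2a, the IgE receptor gene, had log2 signals from 3.66 to 4.51 with a median of 4.02 in knockout livers, and from 2.83 to 3.14 with a median of 2.98 in control livers. The lowest knockout liver was above the highest control liver. The mean was 4.06 ± 0.25 (SD, n = 10) in knockout livers and 2.98 ± 0.10 (SD, n = 11) in control livers, a difference of 1.08 ± 0.08 (SE). It was 0.99 in run 1 and 1.15 in run 2. All control livers lay under the array median and may be near background, so the 2.12-fold difference can be compressed on this scale.

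Cd209a, the dendritic cell lectin, showed the widest spread of the 9 genes among knockout livers. Its log2 signal ran from 4.10 to 7.48 with a median of 5.60 in knockout livers, and from 2.78 to 3.33 with a median of 3.18 in control livers. Knockout replicates 7 and 10 were highest, at 7.48 and 6.67, and replicate 4 was lowest. The mean was 5.60 ± 0.98 (SD, n = 10) in knockout livers and 3.15 ± 0.16 (SD, n = 11) in control livers. The difference was 2.43 ± 0.27 (SE), or 5.40-fold. All 11 control livers lay under the array median and may be near background, so this fold is not exact. The log2 difference was 1.87 in run 1 and 2.85 in run 2.

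Whether the genotype difference changed between runs was tested for all 9 genes with a genotype by run term. None passed, with limma adjusted p from 0.54 for Cd209a to 0.95 for Cd209b; 0.0315% of all genes passed this test. For Cd209a the term was 0.98 ± 0.52 (SE; unadjusted p = 0.073 in limma), and for the other 8 genes it ran from -0.17 for Clec4g to 0.23 for Cd209f.

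The other 6 genes, Cd209b, Cd209c, Cd209d, Cd209e, Cd209f and Cd209g, had signals between 2.37 and 3.71, under the array median in all 21 livers. At this brightness the array may not register changes, so a small difference does not show that transcripts were equal. Their differences ran from -0.20 for Cd209f to 0.02 for Cd209e, with standard errors from 0.043 to 0.11. Cd209e, the nearest of them to Cd209a, had a mean of 2.63 ± 0.07 (SD, n = 10) in knockout livers and 2.61 ± 0.09 (SD, n = 11) in control livers. Cd209d followed with 2.94 ± 0.13 in knockout livers and 3.001 ± 0.17 in control livers (SD, same n). Cd209b, the macrophage lectin SIGNR1, had 2.94 ± 0.13 in knockout livers and 3.03 ± 0.09 in control livers, and Cd209c had 2.91 ± 0.09 in knockout livers and 3.03 ± 0.15 in control livers.

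Cd209f and Cd209g, the pair with the most alike upstream sequence of the 9 genes, were the farthest from Clec4g. Cd209f had signals from 2.37 to 3.02 with a median of 2.59 in knockout livers, and from 2.53 to 3.13 with a median of 2.84 in control livers. Cd209g had signals from 2.84 to 3.71 with a median of 3.04 in knockout livers, and from 3.04 to 3.70 with a median of 3.24 in control livers. The groups overlapped for both genes. The difference was -0.33 in run 1 and -0.10 in run 2 for Cd209f, and -0.27 in run 1 and -0.09 in run 2 for Cd209g. For each of both genes, 8 of 10 knockout livers were under the mean of the controls in the same run. This was not particular to the pair: the count was 8 for Cd209b, 9 for Cd209c, 6 for Cd209d and 5 for Cd209e.

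The position of the genes was described with the 10 measured genes on each side of Clec4g, in the order of the RefSeq annotation. Only their order was used. The sources used here do not name the array's build. Counting away from Clec4g, Fcer2a and Trappc5 come first on one side, and Gm16553 and Cd209a on the other, followed by Cd209e, Cd209d, Cd209b, Cd209c, Cd209f and Cd209g. Of the 12 genes in this window that are not lectins of the cluster, 5 rose and none fell in knockout livers (limma adjusted p under 0.05), where 3.28% of all genes rose. That genes around Clec4g were higher was known from these data when the window was set.

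**Figure D2:**
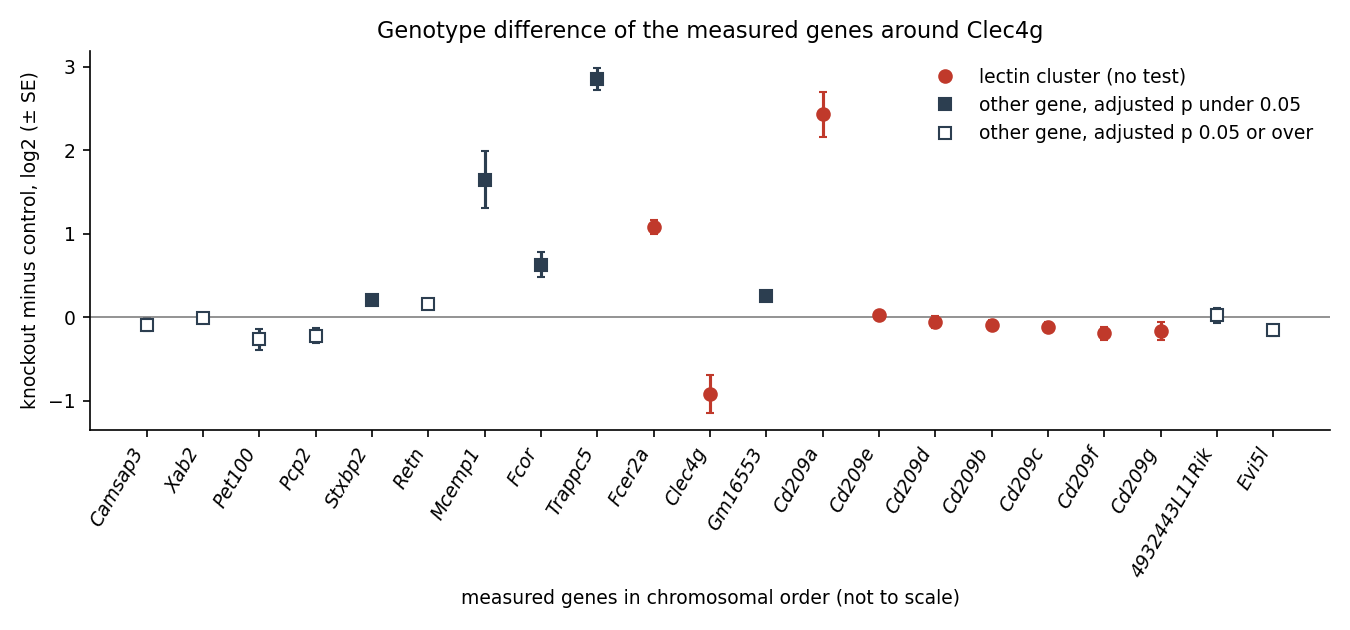
Knockout minus control difference (log2, with SE) of Clec4g and the 10 measured genes on each side in chromosomal order, not to scale, with lectin cluster genes as circles (no test) and other genes as squares, filled where the adjusted p was under 0.05. The higher genes lie between Stxbp2 and Cd209a, and Cd209e and the genes after it are near 0.

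Trappc5, a subunit of the TRAPP vesicle tethering complex, had signals from 8.002 to 9.004 with a median of 8.68 in knockout livers, and from 5.11 to 6.24 with a median of 5.76 in control livers. The groups did not overlap, and the difference was 2.85 ± 0.13 (SE; limma adjusted p = 2.06e-11). Mcemp1, which encodes a small membrane protein, rose by 1.65 ± 0.34 (limma adjusted p = 0.0074), also with no overlap, and Fcor by 0.63 ± 0.15 (limma adjusted p = 0.013). The non-coding gene Gm16553 rose by 0.25 ± 0.06 (limma adjusted p = 0.014) and Stxbp2, a syntaxin-binding protein of granule release, by 0.20 ± 0.05 (limma adjusted p = 0.026). Without knockout replicate 3 or control replicate 9 the call of Stxbp2 was lost (adjusted p up to 0.051). Retn, between Stxbp2 and Mcemp1, differed by 0.16 ± 0.06 and did not pass (limma adjusted p = 0.13).

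Of the 21 genes of the window, 4 had every knockout liver above every control liver: Mcemp1, Trappc5, Fcer2a and Cd209a. In all, 23 of the 25428 genes did. Fcer2a overlaps Trappc5 in the annotation, and Gm16553 overlaps Clec4g. Whether probes of these genes lie in a shared stretch was not tested.

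Dendritic cells were followed by 33 markers, since Cd209a is a lectin of these cells. Of the 33, 7 rose (3.28% of all genes did) and none fell, with a median difference of 0.13 (all genes -0.01). The mean signal of the list ran from 4.64 to 5.06 over knockout livers and from 4.42 to 4.92 over control livers, so it overlapped. The rises were in the antigen presentation genes Cd74 (1.30 ± 0.20, SE; limma adjusted p = 8.75e-04), H2-Ab1 (1.41 ± 0.26), H2-Aa (1.31 ± 0.27), H2-Eb1 and H2-DMb2, in the actin bundler Fscn1 (0.63 ± 0.13) and in the receptor Sirpa. The count was 4 without any 1 of knockout replicates 3, 4 and 7 and control replicates 2 and 10. Antigen presentation genes are shared with B cells and macrophages. The other 26 markers did not pass, among them Itgax, Flt3, Zbtb46, Xcr1, Clec9a, Batf3, Irf8 and Ccr7. Of the 33 markers, 15 had a control mean under the array median. The part of dendritic cells in the Cd209a values was not tested.

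Of 16 measured monocyte markers, 3 rose and none fell, with a median of 0.56: the chemokine receptor Ccr2 (1.17 ± 0.23, SE; limma adjusted p = 0.0054), the Fc receptor Fcgr1 (0.74 ± 0.18; limma adjusted p = 0.019) and the chitinase-like Chil3 (1.95 ± 0.59; limma adjusted p = 0.047). Chil3 alone among the 16 had every knockout liver above every control liver, and its call was lost without any 1 of 16 livers. The mean signal of the monocyte list ran from 4.40 to 5.84 over knockout livers and from 4.01 to 4.73 over control livers. Of 18 Kupffer cell and marginal zone macrophage markers, 6 rose and none fell, with a median of 0.49, among them the complement genes C1qb (1.46 ± 0.24), C1qc (1.16 ± 0.24) and C1qa (0.79 ± 0.16) and the macrophage receptor Adgre1 (1.36 ± 0.29). Vsig4 and Cd5l also rose. The other 12 macrophage markers did not pass, among them Clec4f, Timd4, Marco, Cd163, Siglec1 and Spic. Of all genes, 3.28% rose. The macrophage list ran from 6.70 to 7.69 over knockout livers and from 5.93 to 7.33 over control livers.

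B cells, which carry CD23, had 4 of 17 measured markers higher (3.28% of all genes were) and none lower, with a median of 0.20. The heavy chain gene Ighm rose by 1.93 ± 0.39 (SE; limma adjusted p = 0.0055), and the receptor chains Cd79a and Cd79b by 0.57 ± 0.14 and 0.54 ± 0.15. Bank1, a B cell adaptor, rose by 0.45 ± 0.13. The calls of Bank1 and Cd79b were lost without any 1 of 12 and 6 livers (adjusted p up to 0.072 and 0.067), and the count of the list was 2 without any 1 of knockout replicate 4 and control replicates 4, 8, 9 and 10. The mean signal of the list ran from 3.97 to 4.56 over knockout livers and from 3.70 to 4.17 over control livers. Of the 17, 12 had a control mean under the array median. The part of B cells in the Fcer2a values was not tested.

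Sinusoidal endothelial markers were set beside Clec4g. Of 23 measured, 10 fell and none rose, with a median of -0.33, led by the plexin Plxnc1 (-1.01 ± 0.12, SE; limma adjusted p = 7.16e-05), Bmp2 (-1.17 ± 0.15), coagulation factor F8 (-0.77 ± 0.13) and the scavenger receptor Stab1 (-0.45 ± 0.09). Plxnc1 alone among the 23 had every knockout liver below every control liver. Of all genes, 4.05% fell. Not every marker was lower: Lyve1 had the highest difference of the list, 0.58, and did not pass. The mean signal of the list ran from 6.06 to 6.63 over knockout livers and from 6.45 to 7.09 over control livers.

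C-type lectins of other loci were measured for 61 genes, of which 5 rose and 1 fell (9.84% in either direction, where 7.33% of all genes passed), with a median of 0.05. The fungal receptor Clec7a rose by 1.503 ± 0.19 (SE; limma adjusted p = 1.94e-04), the myeloid inhibitory receptor Clec12a by 1.70 ± 0.33 (limma adjusted p = 0.0050), Cd207, the langerin of Langerhans cells, by 0.86 ± 0.16 and Cd93, a lectin-like receptor of endothelium and myeloid cells, by 0.62 ± 0.11. Clec4a2 also rose, by 0.33 ± 0.10, and the scavenger lectin Colec12 fell by 0.36 ± 0.10. None of the 61 had every knockout liver above every control liver. The list had 9 higher genes without control replicate 3, and its 1 lower call was absent without any 1 of 7 livers (knockout replicates 4, 8 and 10 and control replicates 6, 7, 8 and 10).

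In run 1 alone, with 9 livers, no gene of the 6 lists passed.

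**Figure D3:**
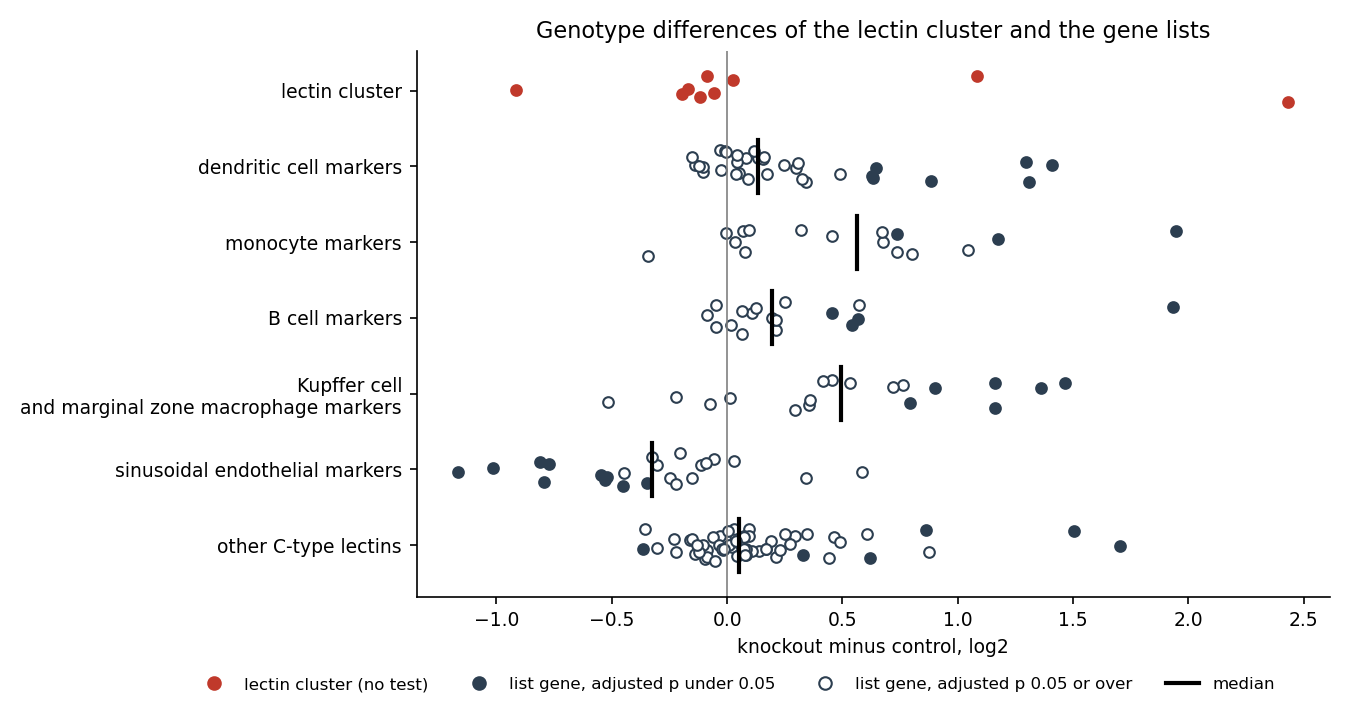
Knockout minus control differences (log2) of the 9 lectin genes and of 6 gene lists, 1 point per gene, filled for list genes with an adjusted p under 0.05, with the median of each list as a bar. Called dendritic cell, monocyte, B cell and macrophage genes lie to the right of 0, and called sinusoidal genes to the left.

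How the genes varied between livers of one genotype and run is independent of the genotype difference. For this, each value was taken as a deviation from the mean of its genotype and run, and 36 pairs of the 9 genes were tested by permutation within genotype and run over 21 livers. No pair passed for Pearson's r after Benjamini-Hochberg adjustment (2 at an unadjusted p under 0.05), and 1 did for Spearman's rho. Cd209f and Cd209g had the highest r, 0.69 (permutation p = 0.0052, adjusted 0.19; rho = 0.70, permutation p = 0.0035, adjusted 0.062). It was 0.71 in knockout livers and 0.69 in control livers, 0.40 in run 1 and 0.74 in run 2, and 0.59 without the 2 livers farthest from the median of Cd209f.

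Clec4g and Fcer2a had r = -0.49 (permutation p = 0.012, adjusted 0.21) and rho = -0.69 (permutation p = 0.0013, adjusted 0.048), so only rho passed. Fcer2a lay under the array median in 12 of 21 livers, where its values may be near background. Splits and alternatives were run for r alone, so the rho was not checked in this way. The value of r was -0.66 in knockout livers and -0.44 in control livers, -0.55 in run 1 and -0.56 in run 2, and -0.41 without the 2 livers farthest from the median of Clec4g. Fcer2a and Cd209a, both higher in every knockout liver, had r = -0.39 (permutation p = 0.28, adjusted 0.78) and rho = -0.25 (permutation p = 0.37, adjusted 0.78), so their joint variation was not shown in either direction.

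Each of the 9 genes was also set against the 5 cell type lists, as 45 relations. Clec4g varied with the sinusoidal endothelial markers, with r = 0.88 (permutation p = 6e-05, adjusted 0.0027) and rho = 0.77 (permutation p = 3.5e-04, adjusted 0.016). The r was 0.78 in knockout livers and 0.95 in control livers, 0.96 in run 1 and 0.79 in run 2, and 0.85 without the 2 livers farthest from the median of Clec4g. It was the only 1 of the 45 that passed by either coefficient. Cd209a and dendritic cell markers had r = 0.31 (permutation p = 0.23, adjusted 0.86; rho = 0.20, permutation p = 0.45, adjusted 0.88), with -0.15 in run 1 and 0.74 in run 2 and -0.06 without the 2 farthest livers. Fcer2a and B cell markers had r = 0.15 (permutation p = 0.67, adjusted 0.87; rho = -0.03, permutation p = 0.92, adjusted 0.98).

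**Figure D4:**
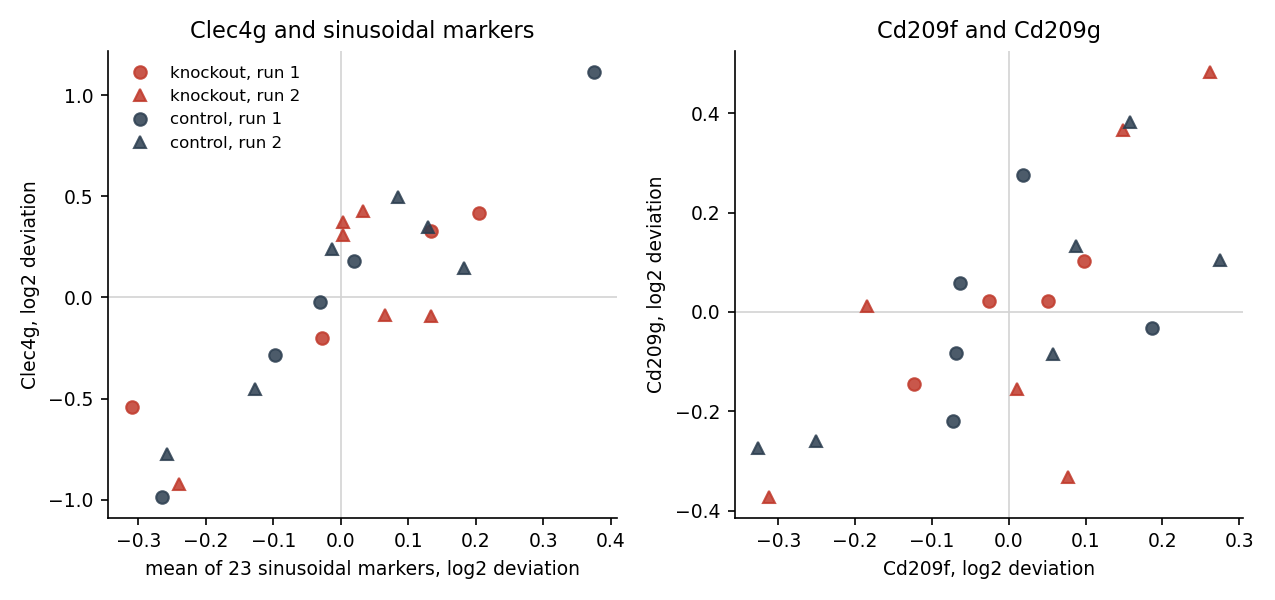
Log2 deviations from the mean of genotype and run in 21 livers, for Clec4g against the mean of 23 sinusoidal markers (left) and Cd209g against Cd209f (right), with knockout livers in red and control livers in dark blue. Clec4g rises with the markers in both genotypes (r = 0.88), and the Cd209 pair is looser (r = 0.69).

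Among named genes with a mean above the array median, those most like Clec4g in these deviations over 21 livers were Oit3 (r = 0.86), Trappc5 (0.81) and Eng (0.80), picked as the highest of 12267 genes and therefore given with no test. Oit3, a gene of sinusoidal endothelium, had a mean of 6.79 in knockout livers and 7.21 in control livers. Its difference of -0.45 did not pass (limma adjusted p = 0.15). Eng was higher in knockout livers, by 0.48 (limma adjusted p = 0.029), opposite in sign to Clec4g. For Trappc5 the r with Clec4g was 0.88 in knockout livers and 0.78 in control livers, although the genotype differences of the 2 genes had opposite signs. The genes most like Cd209a were Letm2 (0.73), Rtn4 (0.71) and Gm21129 (0.70), with r of 0.86 to 0.89 in knockout livers but 0.29 to 0.46 in control livers, where Cd209a hardly varied. The genes most like Fcer2a were Capza1, an actin capping protein gene (0.86), Tuba3a (0.77) and Irx1 (0.77).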

How the data were processed

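Per the labels' protocols, biotinylated cRNA from total RNA of whole livers was measured on Affymetrix arrays. The deposited table holds log2 values that the authors made with RMA, per the submitters' processing notes. This method subtracts background, equalises the quantiles of the arrays and combines the probes of a gene. For its version, the array type and the build, the sources used here give nothing. Scanner files were not used, so closeness to background could not be measured, and the number of arrays limits the precision.

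The 25428 rows are Entrez genes, 24705 with 1 symbol in the platform annotation. In R 4.3.3, limma 3.58.1 (lmFit, then eBayes) fitted all of them on genotype and run, with no filter on low values and Benjamini-Hochberg adjustment over all rows. The 9 genes and the lists were chosen with earlier results of these data known. Correlations used 100000 permutations. Upstream windows came from RefSeq and were aligned with Biopython 1.88. The named genes were the 9, window genes past the threshold, up to 4 per list by adjusted p (else the lowest p), and the 3 most like genes of Clec4g, Cd209a and Fcer2a. The fit was also run on simulated data with independent noise for each gene, and the outcome is not given here. Samples were taken as separate animals because the labels call them biological replicates. Alternatives were no run term, each run alone, the replicate block, other normalisations, priors and weights, a filter on dim rows, and leaving out each liver.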

Additional observations from a re-analysis of the deposited data

Results flagged for a closer look

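In the group of 10 knockout livers, the highest or lowest value of each of the 9 lectin genes and of the 5 higher genes beside them was set against its nearest neighbour, as a share of the group's range (Dixon's ratio, at its 95% critical value). About 1 group in 20 passes by chance. Mcemp1 alone passed, with 9.02 in knockout replicate 6 and 6.42 in the next liver (ratio 0.642). None of the 9 lectin genes had such a value. Among knockout livers, the deviation of the monocyte list from its genotype and run mean was also highest in replicate 6, at 1.02. It was next highest, 0.44, in replicate 3, which was also the next liver for Mcemp1. Whether these values are related was not tested.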

How the results depend on the processing

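The genotype differences of the 9 lectin genes moved by less than 1 SD under every alternative run, from 1.87 to 2.85 for Cd209a, 0.99 to 1.15 for Fcer2a and -1.02 to -0.81 for Clec4g. The genotype by run terms of the 9 genes passed under none. In run 1 alone, with 9 livers, the higher genes of the window numbered 1, no list gene passed (0 in each of the 6 lists, in either direction) and 2 of all genes were higher and 1 lower. In run 2 alone 552 of all genes were higher, against 834 in both runs, and the higher genes numbered 2 in the window, 1 of the monocyte and 1 of the B cell markers, and 3 other lectins were lower. The window held 3 higher genes with the replicate block, and 602 of all genes were then lower, against 1030 without it; leaving out control replicate 8 gave 629 and leaving out control replicate 9 gave 661. Correlations of same-numbered livers ran from -0.09 to 0.18, with 3 of 10 over 0.1. Only the group means were removed for these, so livers of the same run share any run difference. Differently numbered livers were not compared, so these values cannot settle whether the numbers pair the livers. By the labels, replicate 5 was in run 1 for control livers and in run 2 for knockout livers. Control replicate 11 had no knockout liver of the same number. With array weights, 0 other lectins were lower. Leaving out 1 liver gave 4 to 6 higher and 0 to 1 lower genes in the window (the 1 without control replicate 4). It gave 4 to 8 higher and 0 to 1 lower dendritic cell markers (the 1 without control replicate 11), with 4 higher without knockout replicate 3, 4 or 7 or control replicate 2 or 10. It gave 2 to 4 higher monocyte, 5 to 7 higher macrophage and 10 to 11 lower sinusoidal markers. It gave 2 to 6 higher B cell markers, with 2 without knockout replicate 4 or control replicate 4, 8, 9 or 10. It gave 4 to 9 higher and 0 to 2 lower other lectins (9 without control replicate 3, 2 without control replicate 1), and 0 to 1 pairs of the 9 genes past the threshold by Pearson's r (the 1 without knockout replicate 10). The causes were not tested. Leaving out genes with a mean under the array median gave no value for Fcer2a and the 6 dim Cd209 genes. These 6, under the array median in all livers, may be limited by signal near background, which was not measured.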
